A study of Mus musculus with 29 samples.

Results

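The precursor B cell receptor (pre-BCR) is assembled from the products of a small group of genes, of which 6 were examined here. *Vpreb1*, *Vpreb2* and *Igll1* encode the surrogate light chain, *Vpreb3* encodes a protein related to it, and *Cd79a* and *Cd79b* encode the signalling chains Igα and Igβ. The genes were chosen by name and not by a measured value, and each of the 6 matched a single entry among the 24732 entries of the mm9 tables and the 25588 entries of the mm10 tables. All 6 passed the filter on low values described below.

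In a pro-B cell that has rearranged its heavy chain gene, the Ig μ heavy chain pairs with VpreB and λ5, the product of *Igll1*, in place of a conventional light chain. Igα and Igβ carry the receptor to the cell surface and signal through immunoreceptor tyrosine-based activation motifs (ITAMs), which recruit the kinase Syk and the adaptor Blnk. The surrogate light chain genes are shut off after the pre-BCR checkpoint, whereas *Cd79a* and *Cd79b* stay active in mature B cells.

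The measurements are transcript abundances in TPM, which is corrected for gene length and scaled to the same sum of 1000000 in every library, from RNA-seq of bone marrow B cell progenitors of C57BL/6 mice sorted *ex vivo*. There were 3 libraries of wild-type pro-B cells, 2 of Pax5(-/-) pro-B cells, which carry no functional allele of the B cell commitment factor *Pax5*, and 3 labelled Pax5(+/+) Meox2-cre. The Meox2-cre mice carry a broadly active Cre recombinase, were 3 weeks old, and served the study as controls for a *Pax5* fusion allele whose pro-B cells are not analysed here. Their cells are labelled as pooled, and the label Pax5(+/+) differs from the sample list of the study, which names them heterozygous for *Pax5*. The text of the study calls its 3-week-old controls Pax5(+/+), as the label does. *Pax5* was at 394, 376 and 397 TPM in these libraries, and their genotype was not tested here. The ages of the other mice are not given in the sources used here.

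The labels call all of these cells pro-B, but the study sorted Pax5-deficient progenitors with other surface markers than pro-B cells, requiring Ly6D for the former and absence of CD2, IgM and IgD for the latter, so that gate and genotype cannot be told apart. No source used here says that the libraries of a group came from separate mice, so p-values measure only the spread between these samples. The number of reads behind a TPM value is unknown, and in bulk RNA fewer cells of a kind and less RNA per cell cannot be told apart. *Pax5* itself was at 342, 386 and 391 TPM in the wild-type libraries against 43.0 and 39.1 TPM in both Pax5(-/-) libraries, which left 11.0% of the wild-type mean. *Ly6d*, required by the gate of the Pax5-deficient cells, was at 190 to 270 TPM in wild-type libraries and at 2258 and 3033 TPM in Pax5(-/-) libraries. The genes for the shared gate markers B220 (*Ptprc*) and Kit did not pass the test, with log2 fold changes of 0.16 and 0.29.

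The 2 VpreB genes are near copies, which bears on how their reads could be assigned, and the stretch of their coding sequences that differs most is therefore shown first. In the mm9 annotation of GENCODE, *Vpreb1* lies at chr16:16868495-16870936 on the minus strand, 4.42 kb from *Igll1* at chr16:16860764-16864078, also on the minus strand. *Vpreb2* lies on the plus strand at chr16:17980514-17981366. The other members lie at chr10:75405802-75412402 (*Vpreb3*, plus strand), chr7:25682400-25687216 (*Cd79a*, plus strand) and chr11:106172655-106176076 (*Cd79b*, minus strand). The coding sequences are 429 bases long and differ at 9 positions, which is 97.9% identity. Coding bases 298 to 387, counted from 1 at the start codon, hold 5 of the 9 differences, given in capitals below, read from the GENCODE transcripts of mm9.
*Vpreb1*: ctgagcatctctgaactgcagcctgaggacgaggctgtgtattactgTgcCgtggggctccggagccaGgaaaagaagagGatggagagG
*Vpreb2*: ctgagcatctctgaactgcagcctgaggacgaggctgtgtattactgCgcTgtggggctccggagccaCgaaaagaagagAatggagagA

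The reads of these libraries were 50 bases long according to the sample list of the study. Of the 717 windows of 50 bases in the *Vpreb1* transcript, 233 (32.5%) were also found without mismatch in *Vpreb2*, and the same held in the other direction. The other 484 windows of each gene were found nowhere else in the mm9 genome. The same search found 0 shared windows for *Igll1* and *Cd79b*, and 23 of 680 for the longer transcript of *Vpreb3*. For *Cd79a*, 385 of 1408 windows (27.3%) also matched a 616-base stretch of chromosome 12 in which no gene is annotated. The authors counted the wild-type and Pax5(-/-) libraries with the default settings of featureCounts, which leave out reads that an aligner reports at several places. The levels of *Vpreb1*, *Vpreb2* and *Cd79a* are uncertain to that extent.

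**Figure D1:**
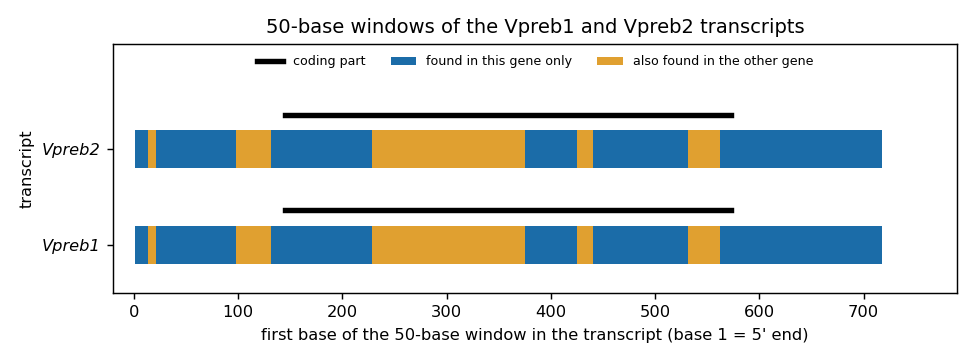
Position along the transcript (first base of each 50-base window, in bases) for *Vpreb1* and *Vpreb2*, with windows found in only that gene in blue, windows found in both genes in orange and the coding part as a black bar. Shared windows make up 233 of 717 in each gene and are most frequent in the middle of the coding part.

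The sequences before the annotated starts are shown because several members moved together. RefSeq windows (GRCm38.p6) were at hand for 5 members and not for *Cd79b*. Each begins 250 bases before the RefSeq start, ends before the first start of a coding transcript in RefSeq or GENCODE, and is written in the direction of transcription. Capitals mark matches, on either strand, to any of 5 motifs chosen with the sequences in view, which are the EBF-type CCCNNGGG, the E-box CAGGTG, the octamer ATGCAAAT, the Ets-type GGAAGT and the Ikaros-type TGGGAA. The regions are chr16:16869256-16869505 (minus strand) for *Vpreb1*, chr16:17980315-17980420 (plus) for *Vpreb2*, chr16:16863986-16864235 (minus) for *Igll1*, chr10:75948050-75948299 (plus) for *Vpreb3* and chr7:24897247-24897380 (plus) for *Cd79a*.
*Vpreb1*: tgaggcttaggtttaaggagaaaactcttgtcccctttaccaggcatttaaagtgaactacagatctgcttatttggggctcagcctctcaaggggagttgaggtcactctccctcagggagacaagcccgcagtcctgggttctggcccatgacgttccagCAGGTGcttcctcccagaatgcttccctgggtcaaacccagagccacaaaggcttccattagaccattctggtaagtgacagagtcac
*Vpreb2*: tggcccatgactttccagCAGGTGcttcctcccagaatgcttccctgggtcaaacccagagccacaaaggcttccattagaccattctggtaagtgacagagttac
*Igll1*: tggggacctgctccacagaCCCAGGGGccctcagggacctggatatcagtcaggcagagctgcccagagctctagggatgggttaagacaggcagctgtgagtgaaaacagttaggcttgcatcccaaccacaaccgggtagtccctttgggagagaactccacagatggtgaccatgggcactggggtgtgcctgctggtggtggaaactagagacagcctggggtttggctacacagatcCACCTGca
*Vpreb3*: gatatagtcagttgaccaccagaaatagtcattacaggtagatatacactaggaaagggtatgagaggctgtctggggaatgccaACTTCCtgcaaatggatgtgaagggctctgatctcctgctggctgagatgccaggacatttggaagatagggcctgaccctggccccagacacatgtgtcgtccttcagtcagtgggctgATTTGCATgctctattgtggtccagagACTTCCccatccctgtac
*Cd79a*: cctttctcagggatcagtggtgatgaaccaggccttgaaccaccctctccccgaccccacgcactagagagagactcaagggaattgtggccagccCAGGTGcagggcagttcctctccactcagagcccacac

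In the whole windows of 300 bases, the E-box was found in *Vpreb1*, *Vpreb2*, *Igll1* and *Cd79a*, and in 20.2% of all 32851 RefSeq promoter windows. The first 156 bases of the *Vpreb2* window matched the last 156 of the *Vpreb1* window at all but 3 positions (98.1%), so the E-box 88 bases before the RefSeq start of *Vpreb1* is the one that lies 232 bases before that of *Vpreb2*, whose annotated start is 144 bases farther downstream. The octamer was found in *Vpreb3* alone among the members, 45 bases before the start, and in 1.74% of all windows. The EBF-type motif was found in *Igll1* alone among the members and in 13.7% of all windows. The Ets-type motif was found in *Vpreb3* and, outside the printed stretch, in *Cd79a*, and in 23.8% of all windows, and the Ikaros-type motif in *Vpreb2*, outside the printed stretch, and in 25.6%. No match overlapped a match to another motif, and a match describes letters, not binding.

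The comparison of Pax5(-/-) with wild-type libraries asks how the transcripts of the pre-BCR differ in the absence of Pax5. *Vpreb1*, *Igll1*, *Vpreb3* and *Cd79a* were lower in Pax5(-/-) libraries by 4.59-fold to 10.1-fold, *Cd79b* was lower by 1.52-fold, and *Vpreb2* did not pass the test. A gene was called when the Benjamini-Hochberg adjusted p of limma was below 0.05, the change on the log2(TPM + 0.5) scale exceeded 3-fold and the mean exceeded 5 TPM in at least one genotype. Of the 6 members 4 were called lower and 0 higher, against 3.89% called lower and 3.35% called higher among the 9765 genes that could be called. At an adjusted p below 0.05 without the other conditions, 5 of 6 were lower and 0 higher, against 21.5% lower and 15.6% higher of the 12066 entries tested. The Pax5(-/-) libraries lay below all wild-type libraries for the same 5 members, as they did for 37.4% of all tested entries, and lay above all of them for 0 members and 26.1% of entries. The median log2 fold change of all tested entries was -0.12, and rescaling by median ratios raised it by 0.11.

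**Figure D2:**
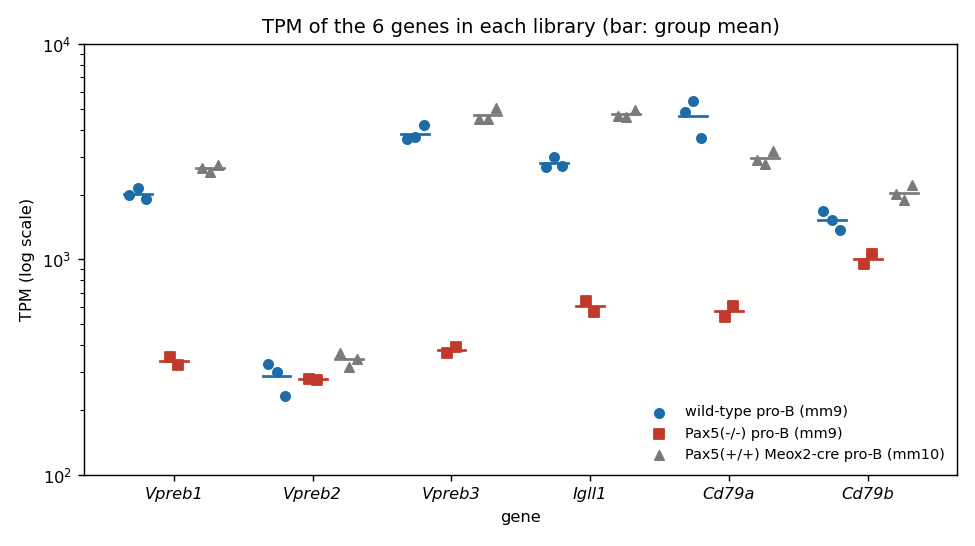
TPM on a log axis for each of the 6 genes, with a point per library, wild-type in blue, Pax5(-/-) in red and Pax5(+/+) Meox2-cre in grey, and bars at the group means. Blue and red points are apart for every gene but *Vpreb2*, whose red points of 279 and 277 TPM lie within the blue range of 232 to 328 TPM.

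Among the surrogate light chain genes, *Vpreb1*, which encodes the V-like subunit, was at 1996, 2147 and 1914 TPM in the wild-type libraries and only 351 and 322 TPM in the Pax5(-/-) libraries. All wild-type values were above both Pax5(-/-) values. The log2 fold change was -2.58 ± 0.10 (SE), with an adjusted p of 5.7e-06, and 16.7% of the wild-type mean remained. *Igll1*, which encodes the C-like subunit λ5, was at 2671, 2974 and 2723 TPM in wild-type and at 642 and 572 TPM in Pax5(-/-) libraries. These groups did not overlap either, with a log2 fold change of -2.20 ± 0.11 (SE), an adjusted p of 1.5e-05 and 21.8% of the mean remaining.

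*Vpreb2*, the near copy of *Vpreb1*, was at 328, 301 and 232 TPM in wild-type libraries and at 279 and 277 TPM in Pax5(-/-) libraries. Both Pax5(-/-) values fell between the lowest and the middle wild-type value. The log2 fold change was -0.03 ± 0.15 (SE), with a 95% interval from -0.38 to 0.32 and an adjusted p of 0.88, and its sign depended on the scaling. The interval does not reach the -2.20 of *Igll1*, the smallest change among the called members. When the TPM of the VpreB genes were added, because their reads could be mixed up, the sum fell by 1.91 on the log2 scale (adjusted p = 2.3e-05).

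*Vpreb3*, whose product resembles VpreB and associates with newly made Ig chains inside the cell, had the largest change among the members. It was at 3639, 3681 and 4200 TPM in wild-type libraries and at 366 and 393 TPM in Pax5(-/-) libraries, with no overlap. The log2 fold change was -3.34 ± 0.11 (SE), with an adjusted p of 3.1e-06, and 9.88% of the wild-type mean remained.

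The genes of the Igα/Igβ heterodimer differed in their changes. *Cd79a* was at 4817, 5449 and 3670 TPM in wild-type libraries and at 542 and 608 TPM in Pax5(-/-) libraries. The wild-type values spread more than those of any other member, with a coefficient of variation of 19.4%, and still all lay above the Pax5(-/-) values. The log2 fold change was -3.00 ± 0.17 (SE), with an adjusted p of 2.6e-05. *Cd79b* was at 1676, 1529 and 1373 TPM in wild-type libraries and at 952 and 1054 TPM in Pax5(-/-) libraries. The groups did not overlap, but the log2 fold change was only -0.60 ± 0.12 (SE) with a 95% interval from -0.88 to -0.32, and 65.7% of the wild-type mean remained. Its adjusted p of 0.0069 rose to 0.064 after rescaling by median ratios, to 0.11 without Pax5(-/-) replicate 1 and to 0.069 without Pax5(-/-) replicate 2.

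**Figure D3:**
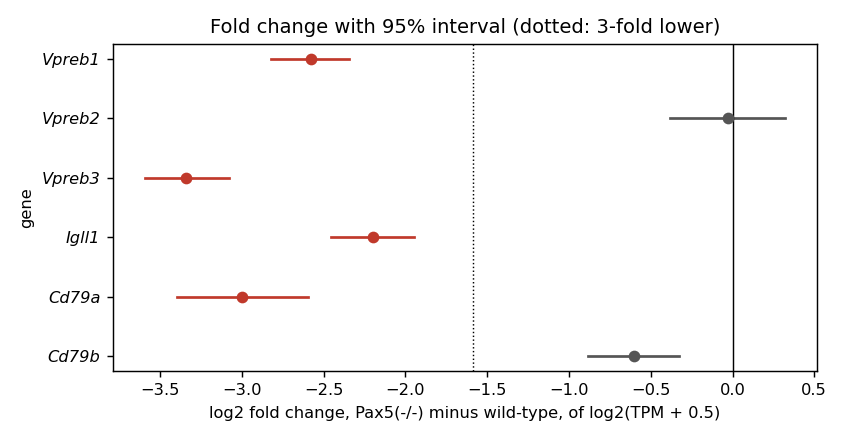
Log2 fold change between Pax5(-/-) and wild-type libraries on the log2(TPM + 0.5) scale, with 95% intervals from limma, for each of the 6 genes. The 4 called genes, in red, lie left of the dotted line at 3-fold lower, *Cd79b* lies at -0.60, and the interval of *Vpreb2* spans 0.

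Since the changes were unequal, the proportions of the members to each other differed between the genotypes. The ratio of *Vpreb1* to *Vpreb2* was 6.08, 7.13 and 8.25 in the wild-type libraries and 1.26 and 1.16 in the Pax5(-/-) libraries. *Vpreb1* thus exceeded its near copy 7.16-fold on average in wild-type cells and 1.21-fold in Pax5(-/-) cells. The ratio of *Cd79a* to *Cd79b* was 2.87, 3.56 and 2.67 in wild-type libraries and 0.569 and 0.577 in Pax5(-/-) libraries, so the order of the pair was turned around. The ratio of *Vpreb1* to *Igll1* moved less, from between 0.703 and 0.747 in wild-type libraries to 0.547 and 0.562 in Pax5(-/-) libraries.

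All 15 pairs of members were compared for a difference in log2 fold change. *Vpreb3* and *Cd79a*, with a difference of -0.34, were the pair whose ratio overlapped between the genotypes. The 15 pairs reuse the same genes, and the share of ratios without overlap among pairs of other genes was not computed. An exact two-sided permutation test over the 10 ways to divide 5 libraries gave its smallest possible p of 0.1 for 13 pairs (0.12 after adjustment over the 15 pairs), and this test cannot reach 0.05 with 5 libraries. The largest difference was 3.30 on the log2 scale, between *Vpreb2* and *Vpreb3*, and that between *Vpreb1* and *Vpreb2* was -2.55. It stayed between -2.66 and -2.44 when any one library was left out.

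**Figure D4:**
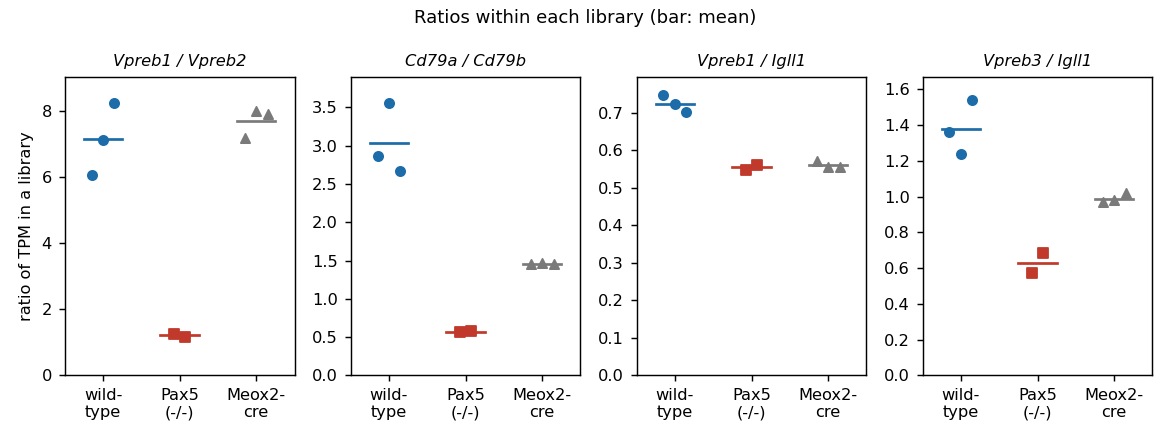
Ratio of the TPM of 2 genes within each library for 4 pairs, with a point per library and bars at the means, for wild-type, Pax5(-/-) and Pax5(+/+) Meox2-cre libraries, each axis starting at 0. The *Vpreb1* to *Vpreb2* ratio is above 6 in all wild-type and Meox2-cre libraries and below 1.3 in both Pax5(-/-) libraries.

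TPM is a level per gene length, so the order of the levels is given within each group. Reads from shared windows may be left out, which length does not correct. Such windows made up 32.5% for *Vpreb1* and *Vpreb2*, 27.3% for *Cd79a* and 0 for *Igll1* and *Cd79b*. The order of these members is uncertain to that extent. In wild-type libraries the order by mean was *Cd79a* (4645 ± 902 TPM, SD, n = 3), *Vpreb3* (3840 ± 312), *Igll1* (2789 ± 162), *Vpreb1* (2019 ± 118), *Cd79b* (1526 ± 151) and *Vpreb2* (287 ± 49.6). The ranges of *Cd79a* and *Vpreb3* overlapped, and those of the other neighbours did not. In Pax5(-/-) libraries *Cd79b* came first (1003 ± 72.3 TPM, SD, n = 2), followed by *Igll1* (607 ± 49.2) and *Cd79a* (575 ± 47.1), whose ranges overlapped, and by *Vpreb3* (379 ± 18.8), *Vpreb1* (336 ± 20.7) and *Vpreb2* (278 ± 1.49). The members together made up 1.41% to 1.61% of all TPM in wild-type libraries and 0.313% to 0.323% in Pax5(-/-) libraries. By mean level in wild-type libraries, *Cd79a* ranked 12, *Vpreb3* 15 and *Vpreb2* 650 among the 24732 entries.

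The Pax5(+/+) Meox2-cre libraries were processed on mm10 with a different aligner, so their levels are set beside the others with no test. *Vpreb1* was at 2645, 2545 and 2746 TPM, *Igll1* at 4629, 4581 and 4949 TPM and *Vpreb2* at 368, 318 and 346 TPM. *Vpreb3* was at 4476, 4484 and 5048 TPM, *Cd79a* at 2908, 2781 and 3202 TPM and *Cd79b* at 2006, 1896 and 2207 TPM. Here *Igll1* (4719 ± 200 TPM, SD, n = 3) and *Vpreb3* (4669 ± 328) came first with overlapping ranges, and *Cd79a* (2964 ± 216) followed. The ratio of *Vpreb1* to *Vpreb2* was 7.18, 8.0 and 7.93, within the wild-type range of 6.08 to 8.25. The ratio of *Vpreb1* to *Igll1* was 0.571, 0.556 and 0.555, below every wild-type value and beside those of the Pax5(-/-) libraries. The ratio of *Cd79a* to *Cd79b* was 1.45 to 1.47, lower than in every wild-type and higher than in every Pax5(-/-) library. For its mm10 comparison of pro-B cells the study describes paired-end alignment and another gene annotation. Whether these libraries were counted in paired mode is not clear from the sources used here. Library, build, aligner, annotation and mouse line differ together here and cannot be told apart.

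The pathway around the pre-BCR was described by lists chosen with earlier results of these data known, so their counts are no independent evidence. Of 19 genes of pre-BCR signalling, 5 were called lower and 0 higher, against 3.89% and 3.35% of all genes that could be called. The median log2 fold change was -0.44 against -0.12 for all tested entries. At an adjusted p below 0.05 alone 11 were lower and 1 higher, against 21.5% and 15.6% of all tested entries. The 11 became 7 without Pax5(-/-) replicate 1 and 5 without Pax5(-/-) replicate 2. The called genes were *Cd72*, an inhibitory co-receptor (log2 fold change -6.37), *Lcp2*, which encodes the adaptor SLP-76 (-3.00), *Blnk*, the adaptor between Syk and phospholipase C (-2.88), *Pik3ap1*, a link to phosphoinositide 3-kinase (-2.65), and the inhibitory receptor *Cd22* (-2.06). The call of *Cd22* was lost without either Pax5(-/-) replicate. *Blnk* was at 808, 1154 and 955 TPM in wild-type libraries and at 163 and 104 TPM in Pax5(-/-) libraries, with no overlap. *Syk*, the kinase that binds the ITAMs, changed by -0.58 ± 0.10 (SE, adjusted p = 0.0033), and *Plcg2*, phospholipase C gamma 2, was the gene that was higher, by 0.76 ± 0.10 (SE, adjusted p = 0.0013). Both were short of 3-fold. *Cd72* and *Lcp2* averaged 1.69 and 0.402 TPM in Pax5(-/-) libraries, under the 5 TPM of the call, so no higher call was open to them.

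**Figure D5:**
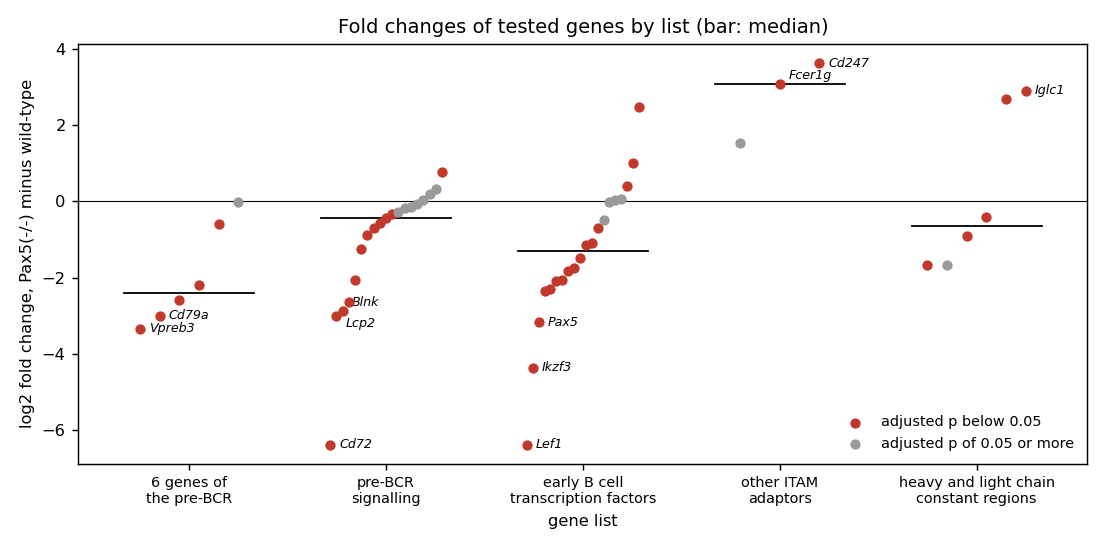
Log2 fold change between Pax5(-/-) and wild-type libraries for the tested genes of each list, a point per gene, red where the adjusted p of limma is below 0.05, with bars at the list medians. The pre-BCR members and the signalling and transcription factor lists have medians below 0, and the 3 of 7 ITAM adaptors of other receptors that passed the filter on low values are plotted above 0.

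Of 20 transcription factors of early B cells, *Pax5* included, 9 were called lower and 1 higher, against 3.89% and 3.35% of all genes that could be called, with a median log2 fold change of -1.31 against -0.12 for all tested entries. The list was chosen with results known, so its count is no independent evidence. *Lef1* was at 481, 595 and 530 TPM in wild-type libraries and at 7.63 and 4.62 TPM in Pax5(-/-) libraries (log2 fold change -6.37). *Ikzf3*, which encodes Aiolos, changed by -4.36, *Bach2* by -2.36, *Irf4* by -2.30, *Id3* by -2.08, *Irf8* by -2.06, *Spib* by -1.82 and *Tcf3*, which encodes the E proteins E12 and E47, by -1.74. *Id2*, an inhibitor of E proteins, was called higher, from 3.09, 5.96 and 4.33 TPM to 26.3 and 26.1 TPM. Its wild-type mean of 4.46 TPM was under the 5 TPM of the call, so no lower call was open to it. Likewise *Ikzf3* averaged 0.517 TPM in Pax5(-/-) libraries, so no higher call was open to that gene. At an adjusted p below 0.05 alone 13 were lower and 3 higher, against 21.5% and 15.6% of all tested entries. Factors short of the call but past this p were *Ebf1* (-1.48), *Foxo1* (-1.14), *Ets1* (-1.09) and *Tcf4* (-0.69), which were lower. *Spi1* (1.01) and *Runx1* (0.40) were higher. The list thus holds factors of both directions, and *Ikzf1*, *Sox4* and *Tcf12* had values of -0.02, 0.03 and 0.05.

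Of 7 genes for ITAM adaptors of other receptors and the pre-T cell receptor, 3 were expressed enough to be tested. Of these, 2, *Cd247* and *Fcer1g*, were called higher and 0 lower, against 3.35% and 3.89% of all genes that could be called. Without the filter on low values the median log2 fold change of the list was 0.01. *Cd247*, the zeta chain of the T cell receptor complex, was at 0.248, 0.917 and 0.372 TPM in wild-type libraries and at 10.6 and 12.3 TPM in Pax5(-/-) libraries, and it passed the filter through the Pax5(-/-) libraries alone, so that no call in the other direction was open to it. *Fcer1g*, the common gamma chain of Fc receptors, was at 4.04, 11.5 and 15.3 TPM and at 68.4 and 90.8 TPM, and its call was lost without Pax5(-/-) replicate 2. *Tyrobp*, at 19.3 and 52.5 TPM on average, did not pass (adjusted p = 0.094). The CD3 genes *Cd3d*, *Cd3e* and *Cd3g* and the pre-T cell receptor alpha chain gene *Ptcra* were at or below 0.434 TPM in every library.

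The heavy chain partner of the surrogate light chain is encoded by *Ighm*, which was at 3504, 3049 and 3381 TPM in wild-type and at 2415 and 2596 TPM in Pax5(-/-) libraries. The groups did not overlap, with a log2 fold change of -0.40 ± 0.11 (SE, adjusted p = 0.029), and the adjusted p reached 0.26 under the alternatives. Among the constant regions of the conventional light chains, *Igkc* was lower (log2 fold change -1.67, adjusted p = 0.0013). *Iglc1* (2.90, adjusted p = 5.2e-05) and *Iglc3* (2.67, adjusted p = 6.6e-05) were higher. *Iglc2*, at 0.276, 2.71 and 1.07 TPM in wild-type and at 0 TPM in both Pax5(-/-) libraries, did not pass the test (-1.66, adjusted p = 0.052). *Iglc1* was at 2.74 to 3.63 TPM in wild-type libraries and at 26.4 and 29.1 TPM in Pax5(-/-) libraries, far under the *Igll1* level of 572 and 642 TPM. Immunoglobulin genes were not eligible for the 3-fold call.

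The nearest tested gene on each side was examined to see whether the changes extended along the chromosome. *Vpreb1* and *Igll1* are each other's neighbours, and both were called lower. On its other side, *Vpreb1* overlaps *Top3b*, a topoisomerase gene on the opposite strand, by 108 bases in the GENCODE annotation, and *Top3b* had a log2 fold change of -0.17 ± 0.11 (SE, adjusted p = 0.26). The counting is not stated to have used strand. The authors counted with a modified refGene annotation, and whether that annotation holds the overlap was not examined here. The gene next to *Vpreb2*, *Slc25a1* at 52.2 kb, which encodes the mitochondrial citrate carrier, was called higher, from a mean of 234 to 1147 TPM (log2 fold change 2.29 ± 0.10, SE, adjusted p = 9.2e-06). The muscle sodium channel gene *Scn4a*, 3.83 kb from *Cd79b*, was called lower, from a mean of 6.09 to 0.224 TPM (-3.18 ± 0.24, SE, adjusted p = 9.6e-05). *Arhgef1* and *Rps19* beside *Cd79a* had log2 fold changes of 0.13 and 0.78, and *Gm867* and *Gm5134* beside *Vpreb3* of -2.07 and -1.41 with wild-type means of 3.93 and 2.65 TPM. *Dgcr6*, 71.6 kb from *Vpreb2*, *Dnm1l*, 502 kb from *Igll1*, and *Gh*, 9.48 kb from *Cd79b*, had log2 fold changes of -0.66, -0.18 and -0.88. None of these 7 was called. At an adjusted p of limma below 0.05 alone, *Dgcr6* (0.0075), *Gm867* (0.013), *Gm5134* (0.019) and *Gh* (0.015) were lower and *Rps19* (0.026) was higher. *Arhgef1* and *Dnm1l* did not pass (0.33 and 0.43). *Gm867*, *Gm5134* and *Gh* averaged under 5 TPM in both genotypes, so no call was open to them. *Scn4a* averaged under 5 TPM in Pax5(-/-) libraries, so no higher call was open to it.

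Likeness to the members was measured as the root mean square difference from their median profile, in log2 units over the 5 mm9 libraries, among 9322 expressed genes. The closest were *Bcl2l1* (0.061), which encodes the survival protein Bcl-xL, *Prkd2* (0.089), a protein kinase D, *Ppp1r16b* (0.10), a regulatory subunit of protein phosphatase 1, *Ubash3a* (0.10), a regulator of T cell receptor signalling, and *Rabgap1l* (0.11), a Rab GTPase-activating protein. *Bcl2l1* was at 147, 152 and 126 TPM in wild-type libraries and at 26 and 23.9 TPM in Pax5(-/-) libraries. As these genes were picked for their profile, their values are a description and no test is given.

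Markers of other cells were summed per library, and several lists differed between the genotypes. For comparison, 3.89% of all genes that could be called were called lower and 3.35% higher. Of the erythroid list 2 of 4 genes could be tested and 1, *Klf1*, was called lower. It summed to 59.7 to 140 TPM in wild-type, to 52.8 and 6.21 TPM in Pax5(-/-) and to 198.5 to 281 TPM in Meox2-cre libraries. *Hbb-b1* was at 0 TPM, and *Hba-a1* was left out for mm9, where it matched 2 entries, and was at 0 TPM in mm10. The sums are thus of *Klf1* and *Alas2* and hold no globin transcript. With a Pax5(-/-) mean of 4.1 TPM, no higher call was open to *Klf1*. The call of *Klf1* was lost without either Pax5(-/-) replicate. The myeloid list (1 of 6 called lower, 4 not passing the test) summed to 41.6 to 168 TPM in wild-type, to 55.1 and 73.4 TPM in Pax5(-/-) and to 269 to 649 TPM in Meox2-cre libraries, so wild-type and Pax5(-/-) libraries overlapped. The call, that of *Elane*, was lost under some alternatives, among them robust eBayes and leaving out wild-type replicate 2. With a Pax5(-/-) mean of 1.38 TPM, no higher call was open to *Elane*.

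Of the T cell list 4 of 6 genes could be tested and 0 were called. At an adjusted p below 0.05 alone 3 were higher and 1 lower, against 15.6% and 21.5% of all tested entries. *Cd4* was at 0.368 to 0.712 TPM in wild-type and at 3.97 and 5.88 TPM in Pax5(-/-) libraries (log2 fold change 2.38, adjusted p = 0.00086), *Cd6* and *Tcf7* were higher by 1.60 and 0.92 on the log2 scale, and *Cd5* had a log2 fold change of -1.38. *Bcl11b* and *Cd8a* were at or below 0.288 TPM in every library. The list summed to 34.5 to 53.1 TPM in wild-type and to 67.0 and 70.2 TPM in Pax5(-/-) libraries. Of the NK cell list 2 of 5 genes could be tested, *Nkg7* was called higher (1.71 to 5.35 TPM against 17.9 and 22.7 TPM) and *Klrb1c* lower. Among all genes that could be called, 3.35% were called higher and 3.89% lower. With a wild-type mean of 4.06 TPM, no lower call was open to *Nkg7*. With a Pax5(-/-) mean of 1.16 TPM, no higher call was open to *Klrb1c*. The call of *Nkg7* was lost without either Pax5(-/-) replicate, and that of *Klrb1c* under 8 alternatives. The list summed to 3.89 to 14.3 TPM and to 19.0 and 24.0 TPM, with *Ncr1* at or below 0.167 TPM.

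Of the plasmacytoid dendritic cell list 2 of 4 were tested and 1 was called higher, against 3.35% of all genes that could be called. It summed to 83.2 to 124 TPM and to 122 and 173 TPM, with overlap. The called gene, *Siglech*, averaged 0.6 TPM in wild-type and 5.43 TPM in Pax5(-/-) libraries, so no lower call was open to it. Its call was lost under several alternatives, among them eBayes without trend and leaving out wild-type replicate 1 or 2. Of the later B cell list 3 of 5 genes could be tested. All 3 were lower at an adjusted p below 0.05, against 21.5% of all tested entries. With robust eBayes or eBayes without trend, 2 of them were. The log2 fold changes were -2.75 for *Ms4a1*, -1.75 for *Cd2* and -0.91 for *Ighd*. None was eligible for the call, since *Ms4a1* and *Cd2* averaged under 5 TPM and *Ighd* is an immunoglobulin gene. This list summed to 39.6 to 73.2 TPM and to 23.5 and 21.7 TPM. Of plasma cell markers 2 of 3 were tested and 1 was called lower, against 3.89% of all genes that could be called. Their sums were 96.7 to 106 TPM and 86.5 and 94.4 TPM. The part of these cells in the members' values was not tested.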

How the data were processed

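The study's RNA-seq of sorted bone marrow pro-B cells was used. Per the labels and methods, the authors removed ribosomal RNA reads, aligned wild-type and Pax5(-/-) reads to mm9 with TopHat 1.4.1a and Meox2-cre reads to mm10 with STAR 2.4.2a, counted them with featureCounts 1.5.0 and deposited TPM, which include immunoglobulin and T cell receptor genes. The depth of each sample in reads is therefore unknown.

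For the genotypes, limma 3.58.1 (R 4.3.3, eBayes with an intensity trend, no covariates) was run on log2(TPM + 0.5) of 3 wild-type and 2 Pax5(-/-) libraries. It covered the 12066 entries whose mean in wild-type or Pax5(-/-) libraries exceeded 1 TPM, and p-values were adjusted over all of them (Benjamini-Hochberg). The fit was tested on simulated data. Some items of the gene lists are not reported here. Fold changes understate those of low genes. Calls excluded 518 immunoglobulin and T cell receptor entries. The members, lists and tests were chosen with earlier results of these data known. Named genes were the 6 members, called genes or the 3 with the largest change of each list, the 5 genes nearest in profile and the nearest tested neighbours. Other genes, such as *Syk*, *Plcg2*, *Tyrobp*, *Ebf1*, *Foxo1*, *Ets1*, *Tcf4*, *Spi1*, *Runx1*, *Ikzf1*, *Sox4* and *Tcf12*, were named after their values were seen. Alternatives were pseudocounts of 0.1 and 1, other filters, eBayes without trend or robust, median-ratio and quantile scaling, removal of immunoglobulin and T cell receptor entries, each library left out, a 2-fold threshold, the limma treat test, and summed VpreB genes. Windows of 50 bases were searched on both strands of mm9. Figures were made with matplotlib 3.10.9.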

Additional observations from a re-analysis of the deposited data

How the results depend on the processing

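The calls of *Vpreb1*, *Vpreb3*, *Igll1* and *Cd79a* as lower held under every alternative run, with log2 fold changes from -3.41 to -1.91, the latter for summed VpreB genes, and adjusted p-values up to 0.0054 in limma. The number of members called stayed at 4, also at 2-fold and in the treat test against 3-fold. *Vpreb2* turned positive with median ratios (0.08) and with quantile normalization (0.08), and ranged from -0.18 to 0.07 when a library was left out. *Cd79b* did not pass the test with median ratios (-0.49, adjusted p = 0.064), and ranged from -0.68 to -0.53 when a library was left out. A 2-fold threshold called 753 genes lower and 630 higher, and the treat test 153 and 118, in place of 380 and 327, which follows from the thresholds. Leaving out a library gave 306 to 461 lower and 284 to 336 higher. The share of higher calls was 46.3%, and 51.8% with median ratios. The pair differences kept their sign under the alternatives run, and the Meox2-cre means stayed within 1 SD. No paired analysis was possible because replicate numbers here only name the libraries. A Pax5(-/-) group of 2 libraries, or of 1 when the other was left out and was assumed to vary like the wild-type, and an unknown depth limit the precision.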

Other observations

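The 3 Meox2-cre libraries held *Hbb-b2*, an adult beta globin gene chosen here after its values were seen, at 2705, 3475 and 2315 TPM, in the range of the 6 pre-BCR genes, while *Hbb-b1* was listed at 0 in all 8 libraries. No mm9 value of *Hbb-b2* is used here.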
